A study of Mus musculus with 24 samples.

Results

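Primary myoblasts (PMs) were compared with C2C12 cells, both transfected with a control siRNA (siControl) and collected at day 3 of differentiation, when the cultures hold myotubes. The comparison took the raw read counts of 2 PM libraries against 2 C2C12 libraries, of the 24 libraries of the series, over the genes outside chromosomes X and Y, which are 26586 of the 28109 genes in the deposited table. Of these, 15818 had enough counts to be tested and the others are not part of any count below. The remaining libraries are the same cells at day 0, labelled as not differentiated, and at day 6, and cells with siRNAs against Tead1 and Tead4 (siTead1/4). All 24 libraries form 12 groups of 2.

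The PMs were isolated from juvenile C57BL/6 mice (C57/B6 in the labels), grown on a Matrigel-coated surface and differentiated in a low-serum IMDM-based medium. C2C12 is an established line of mouse myoblasts from the C3H strain that was differentiated in a low-serum medium based on DMEM. Both groups received the control siRNA labelled siLuc, and the labels name no introduced allele. Nnt, a mitochondrial transhydrogenase that lacks exons in a common C57BL/6 substrain, was at 116 and 105 CPM in PMs and 117 and 122 CPM in C2C12 cells, and was not called, but a gene total does not show which exons were read. Strain, source, passage history and culture conditions all changed together between the groups, so their parts in any difference cannot be told apart. The number of animals behind a PM library was not given in the sources used here, and the labels call the replicates biological without saying whether animals or cultures were separate, so a p-value measures only the spread between these libraries, which may be technical.

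Skeletal myoblasts leave the cell cycle when growth factors are withdrawn, switch on Myog and then the genes of the contractile apparatus, and fuse into multinucleated myotubes. Sarcomeres are built first from embryonic and perinatal isoforms of myosin, actin and troponin, which are replaced by adult fast or slow isoforms as fibres mature. PMs are the progeny of satellite cells, whereas C2C12 has been passaged for many years as an immortal line, and both are used as models of this process.

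Both cell types had the expression of differentiated muscle cells. The 12 myotube markers summed to 53520 and 50430 CPM in the PM libraries and to 20120 and 24820 CPM in the C2C12 libraries, where CPM is the count scaled to a common library size (edgeR's cpm) after TMM scaling. Myog, the factor that starts terminal differentiation, stood at 964 and 1133 CPM in PMs and at 1125 and 1110 CPM in C2C12 cells, and the groups overlapped (log2 fold change -0.09 for PM over C2C12, SE 0.39, edgeR adjusted p = 0.86). In bulk RNA, fewer myotubes in a culture and less RNA of a gene in each myotube cannot be told apart.

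Markers of other cell types were also examined. By the rule given in the next paragraph, 17.2% of all genes tested were called higher and 13.3% lower in PMs. The 12 endothelial markers summed to 30.5 and 11.8 CPM in PMs and to 2.76 and 4.03 CPM in C2C12 cells, with Vwf the most abundant and Emcn without a count in C2C12 cells. Of these 12, 9 were called higher in PMs and none lower, and 5 were called without PM replicate 1 or without either C2C12 library. The 14 fibroblast markers tested were mixed, with 3 called higher and 7 lower. They summed to 2910 and 3200 CPM in PMs against 4289 and 4991 CPM in C2C12 cells, where Col3a1 was the largest. Against that direction, Col1a1 stood at 1100 and 993 CPM in PMs and at 187 and 251 CPM in C2C12 cells. Thy1 had 955 and 668 counts in PMs against 2 and 0. Tcf21 was without a count in all 4 libraries. Of 11 Schwann cell markers tested, 5 were higher and 3 lower. Without PM replicate 1 these counts were 1 and 2, without C2C12 replicate 1 they were 2 and 2, and without C2C12 replicate 2 they were 2 and 3. Sox10 and Cdh19 had no count in C2C12 cells, and the summed level was 391 and 381 CPM in PMs against 444 and 500.3 CPM. Most of each sum was Erbb3, at 356 and 347 CPM in PMs against 303 and 392 CPM. Erbb3 is also in the list of neuromuscular junction genes, so the sum says little of Schwann cells. The 12 macrophage and leukocyte markers with an entry summed to 9.53 and 7.92 CPM in PMs and to 6.38 and 5.23 CPM in C2C12 cells. Of these, 7 were tested, with 3 higher and 1 lower. Itgam was the most abundant, Emr1 and C1qa were without a count in all 4 libraries, and Aif1 and Ptprc without one in PMs. Of 6 adipocyte markers, 1 was higher and 3 were lower, with 2 higher without PM replicate 2 and 0 higher without C2C12 replicate 1. Of 11 smooth muscle and pericyte markers, 5 were higher and 2 lower. The part of other cells in the differences described here was not tested.

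PMs and C2C12 cells differed at a large share of the genes. A gene was called at an edgeR adjusted p below 0.05 and a log2 fold change past 1 in either direction. By this rule 2728 genes were higher in PMs, which is 17.2% of the 15818 tested, and 2097 were lower, which is 13.3%. The difference was more than 4-fold in 1594 of the higher and 962 of the lower genes, and more than 8-fold in 1035 and 540. Both PM libraries lay on the same side of both C2C12 libraries for 2725 of the higher and 2096 of the lower genes. The totals were 40626991 and 44059044 counts in PMs and 42695801 and 50042946 in C2C12 cells, and the 10 most abundant genes took 9.47% and 8.79% of the counts in PMs against 5.96% and 5.91% in C2C12 cells. The median log2 fold change over all genes was 0.02, but it was 0.14 under upper-quartile scaling and -0.13 under scaling by total counts. Genes higher in PMs were 56.5% of all calls under TMM scaling, 62.6% under upper-quartile scaling and 49.3% under total counts.

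**Figure D1:**
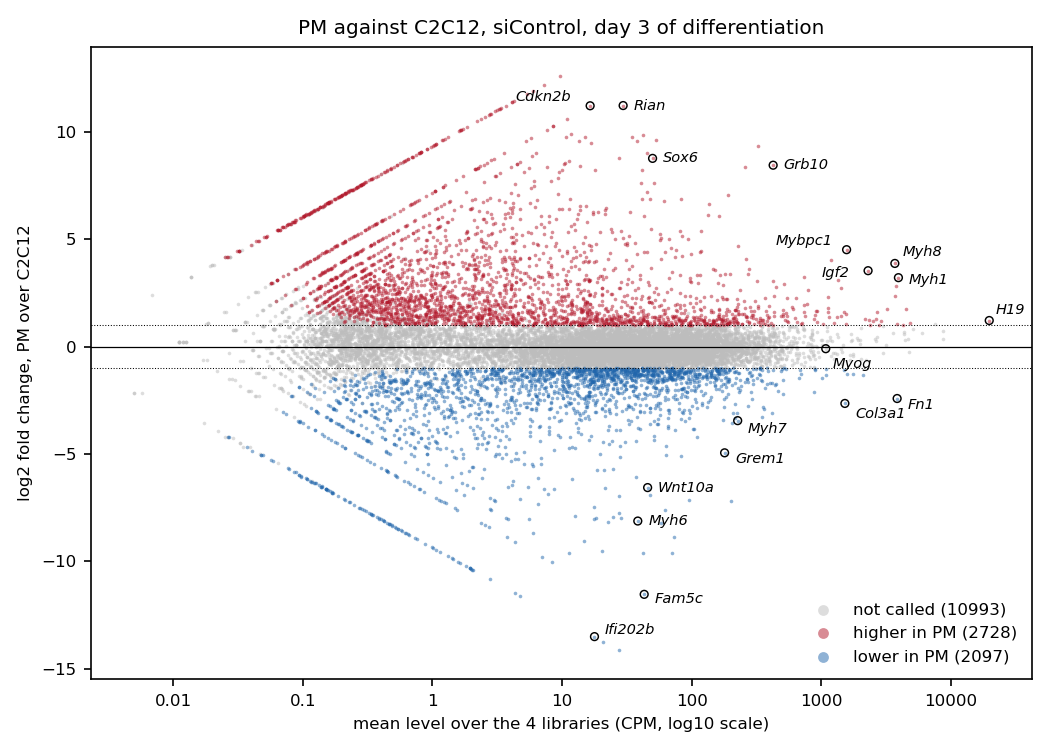
Each point is a gene, with its mean level over the 4 siControl day 3 libraries in CPM on a log10 axis and the log2 fold change of PM over C2C12 on the other axis. Red points are the 2728 genes called higher and blue points the 2097 called lower in PMs, grey points were not called, and dotted lines mark a log2 fold change of 1 in each direction. Genes without a count in the 4 libraries are not drawn, and the slanted lines of points at low levels are genes with no or few counts in the lower group.

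A set of 45 genes was on in PMs alone, with at least 200 counts in both PM libraries and at most 3 in both C2C12 libraries, and 24 genes were on in C2C12 cells alone. Of the former, 41 were protein coding and 4 lincRNA genes. Of the latter, 14 were listed as protein coding, 9 as pseudogenes and 1 as a lincRNA. Of the 15818 genes tested, 14097 were protein coding, 689 lincRNA genes and 506 pseudogenes. The protein coding share of the genes on in PMs alone was thus near that of all genes tested. Cdkn2a (mm9 chromosome 4, 88920377 to 88940557) and its neighbour Cdkn2b (88952198 to 88956941), which encode inhibitors of the G1 cyclin-dependent kinases, were in the first set. Cdkn2a had 546 and 1156 counts in PMs and 1 and 0 counts in C2C12 cells, a ratio of 2062 with a 95% counting interval from 369.5 to 81477. Cdkn2b had 1147 and 1404 counts against 1 and 0. In both, the PM libraries were far above a C2C12 level that rested on a single count.

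Among the 12 largest rises, which were chosen by their size and are given as a description, 4 genes had no count in C2C12 cells. Kcnq5, which encodes a potassium channel subunit, had 613 and 881 counts in PMs and was at least 298-fold higher. Gal, which encodes the neuropeptide galanin, had 656 and 444 counts and was at least 224-fold higher. Eef1a2, the translation elongation factor of adult muscle and neurons, had 316 and 616 counts and was at least 184-fold higher, and Slit3, a secreted guidance protein, had 514 and 305 counts and was at least 167-fold higher. These bounds set C2C12 cells at a floor of 3 counts in each library and, like the counting intervals, cover counting error only. The other 8 were Rian, Cdkn2b, Cdkn2a, Cd300c, Tmem30b, Zcchc3, 5930412G12Rik and Rcsd1, with between 546 and 3497 counts in each PM library and at most 7 in each C2C12 library.

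Among the 12 largest falls, Ifi202b (mm9 chromosome 1, 175892700 to 175912975), an interferon-inducible member of the p200 family, had no count in PMs and 1612 and 1708 counts in C2C12 cells, and was at least 457-fold lower in PMs. Fam5c, a gene expressed mainly in the nervous system, had 2 and 0 counts in PMs and 4367 and 3588 in C2C12 cells, a ratio of C2C12 over PM of 3284 (95% counting interval 908.7 to 27119). Ly6c2, a surface protein known from leukocytes, had 0 and 1 counts against 910 and 636, and Fam180a had 1 and 0 against 555 and 770. The other 8 entries were predicted genes and copies of ribosomal protein genes, such as Rps26-ps1, with 0 and 4 counts in PMs and 1907 and 1882 in C2C12 cells, and Rps15a-ps8, with 0 and 4 against 1394 and 1350. Such entries can share reads with near-identical copies elsewhere, and the reference genome is that of the strain of the PMs, so their values are uncertain.

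The start regions of the genes with the largest differences were searched for the MCAT core CATTCC, which Tead factors bind, and for the myogenic E-box CAGCTG, on both strands. RefSeq windows of 250 bases before to 50 after a start (GRCm38.p6, which is not the mm9 build of the counts) were matched for 10 of the 12 largest rises and 4 of the 12 largest falls. No window was matched for Rcsd1 and 5930412G12Rik. Of all 32851 windows, 14.7% held the MCAT core and 16.3% the E-box. Of the 12 windows of rises, 2 held the MCAT core and 1 the E-box, and of the 7 windows of falls, some of which overlap, 3 held the MCAT core and 2 the E-box. Below are a rise and a fall with each motif, in capitals, read 5′ to 3′ on the strand of the gene. The windows are Rian at chr12:109603695-109603994 on the plus strand, with the MCAT core on the opposite strand from base 148, and Eef1a2 at chr2:181156966-181157265 on the minus strand, with the E-box from base 294. Those of the falls are Ifi202b at chr1:173982795-173983094 on the minus strand, with the MCAT core on the opposite strand from base 23, and Ly6c2 at chr15:75111888-75112187 on the minus strand, with the E-box from base 157. Bases are counted from 1 at the 5′ end of the window. A match describes these letters and says nothing of binding.
Rian: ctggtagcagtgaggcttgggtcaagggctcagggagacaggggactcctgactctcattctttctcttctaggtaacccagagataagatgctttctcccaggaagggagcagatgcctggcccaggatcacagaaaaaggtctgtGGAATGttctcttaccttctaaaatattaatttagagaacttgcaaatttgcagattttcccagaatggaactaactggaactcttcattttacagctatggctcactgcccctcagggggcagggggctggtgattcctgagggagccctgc
Eef1a2: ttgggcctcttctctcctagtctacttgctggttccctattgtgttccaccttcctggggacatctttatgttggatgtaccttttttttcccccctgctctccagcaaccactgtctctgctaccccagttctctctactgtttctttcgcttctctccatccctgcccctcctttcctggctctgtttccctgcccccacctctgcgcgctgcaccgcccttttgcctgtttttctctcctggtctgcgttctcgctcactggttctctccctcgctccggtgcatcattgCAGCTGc
Ifi202b: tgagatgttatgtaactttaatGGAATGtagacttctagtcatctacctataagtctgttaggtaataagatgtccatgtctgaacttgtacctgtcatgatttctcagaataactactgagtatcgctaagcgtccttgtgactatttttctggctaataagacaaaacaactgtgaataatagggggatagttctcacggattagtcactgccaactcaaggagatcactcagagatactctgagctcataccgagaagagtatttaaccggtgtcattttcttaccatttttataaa
Ly6c2: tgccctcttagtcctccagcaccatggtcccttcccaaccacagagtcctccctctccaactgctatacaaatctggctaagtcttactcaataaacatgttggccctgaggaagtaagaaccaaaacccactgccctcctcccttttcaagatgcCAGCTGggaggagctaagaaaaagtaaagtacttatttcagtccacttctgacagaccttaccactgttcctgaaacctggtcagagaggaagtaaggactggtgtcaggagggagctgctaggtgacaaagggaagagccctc

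The genes of the contractile apparatus took a larger share of the counts in PMs, and the isoforms within families differed. The sarcomere lists together held 11.4% and 10.9% of all counts in PMs against 5.15% and 5.60% in C2C12 cells. Of 10 myosin heavy chain genes tested, 5 were higher and 3 lower in PMs, with a median log2 fold change of 1.13 against 0.02 over all genes. The shares of all genes tested were 17.2% higher and 13.3% lower. The perinatal Myh8 (mm9 chromosome 11, 67090626 to 67122136) stood at 6741 and 7093 CPM in PMs and at 280 and 658 CPM in C2C12 cells, a 14.7-fold difference (log2 fold change 3.88, SE 0.68, edgeR adjusted p = 0.00079). The fast adult Myh1 stood at 7302 and 6910 CPM against 600.2 and 926 CPM (log2 fold change 3.22, SE 0.35, edgeR adjusted p = 3.6e-05). Myh4, of the fastest adult fibres, stood at 2524 and 1922 CPM against 54.2 and 217 CPM (log2 fold change 4.04, SE 0.86, edgeR adjusted p = 0.0027). For these 3 genes the lowest PM library was well above the highest C2C12 library.

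The slow Myh7 and the cardiac Myh6 were lower in PMs. Myh7 (mm9 chromosome 14, 55589525 to 55613471), the slow myosin, stood at 32.6 and 43.6 CPM in PMs and at 324 and 506 CPM in C2C12 cells (log2 fold change -3.44, SE 0.50, edgeR adjusted p = 0.00023). Its neighbour Myh6, the cardiac alpha myosin, had 9 and 12 counts in PMs against 2890 and 4340 (log2 fold change -8.12, SE 0.34, edgeR adjusted p = 8.1e-08). Both PM libraries lay below both C2C12 libraries for each gene. The embryonic Myh3, at 10788 and 10835 CPM in PMs and 5070 and 7962 CPM in C2C12 cells, was not called (log2 fold change 0.73, SE 0.35, edgeR adjusted p = 0.10), although its libraries did not overlap. Myosin heavy chain genes are close paralogs that can share reads, so the level of each is uncertain.

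Per kilobase of gene length, the make-up of the summed sarcomeric myosin heavy chain counts differed accordingly. Myh3 made up 41.9% and 43.1% in PMs and 79.8% and 77.7% in C2C12 cells. Myh1 made up 27.4% and 26.6% against 9.14% and 8.75%, and Myh8 20.5% and 22.1% against 3.44% and 5.02%. Myh7 made up 0.122% and 0.167% against 4.93% and 4.76%. With 2 libraries a group an exact permutation test cannot reach 0.05, so these shares are given without a test. The share of Myh3 in PMs was higher at day 0, at 75.8% and 73.7%, than at day 3. In C2C12 cells it was 55.4% and 69.1% at day 0 and 66.2% and 63.6% at day 6.

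**Figure D2:**
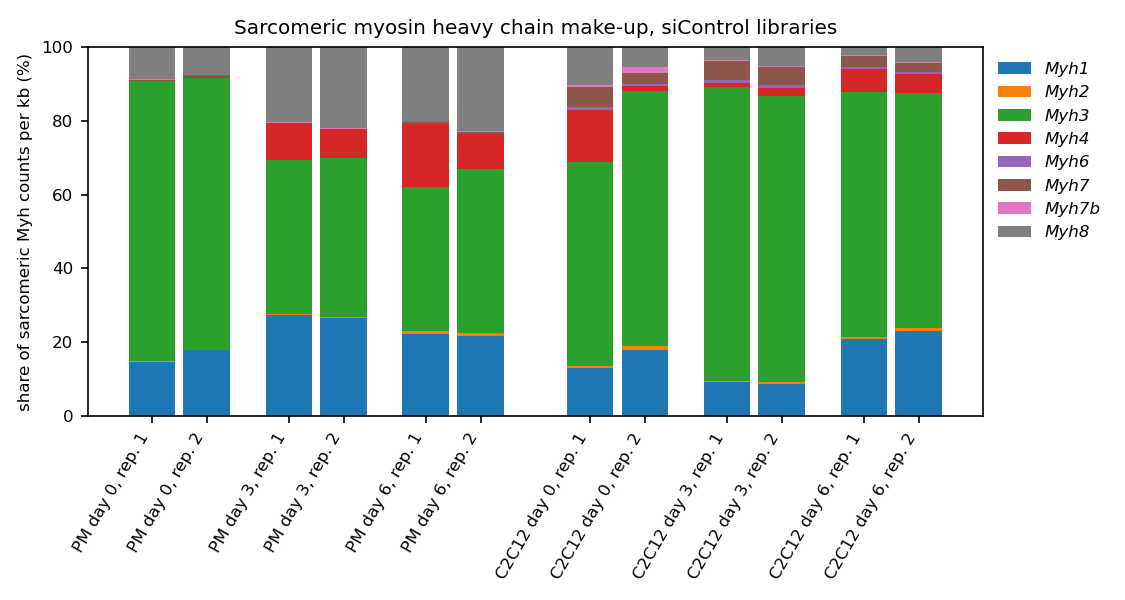
Bars show the make-up of the sarcomeric myosin heavy chain counts per kilobase of gene length, in percent, for each of the 12 siControl libraries, with the 2 replicates of a day side by side. At day 3 Myh3 (green) made up 41.9% and 43.1% in PMs and 79.8% and 77.7% in C2C12 cells, while Myh1 (blue) and Myh8 (grey) were larger shares in PMs.

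Of 9 myosin light chain genes and their kinases, 2 were higher and 1 lower (median log2 fold change 0.60), near the shares of all genes tested (17.2% and 13.3%). Of 18 thin filament genes, 9 were higher and 3 lower in PMs (median log2 fold change 1.01), and 7 and 1 without PM replicate 1. Of 37 Z-disc and M-band genes, 22 were higher and 4 lower (median 1.18), and 2 were lower without PM replicate 2. Mybpc1, the slow-type myosin-binding protein C, stood at 2966 and 3043 CPM against 91.6 and 170 CPM (log2 fold change 4.52, SE 0.63, edgeR adjusted p = 0.00017). Fast troponin T, Tnnt3, stood at 5341 and 4525 CPM against 1462 and 1477 CPM (log2 fold change 1.75, SE 0.41, edgeR adjusted p = 0.0049). Tnnt3 was 67.9% and 64.9% of the troponin T counts per kilobase in PMs and 38.6% and 38.6% in C2C12 cells, and the cardiac and embryonic Tnnt2 27.0% and 29.6% against 50.6% and 51.2%. Giant titin, Ttn, was called higher (log2 fold change 1.18), but not without C2C12 replicate 1 (0.89). Skeletal actin, Acta1, at 10596 and 9733 CPM against 5029 and 4666 CPM, was not called (log2 fold change 1.07, SE 0.46, edgeR adjusted p = 0.072), and was called by DESeq2.

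Genes of excitation-contraction coupling, which link the membrane signal to calcium release, were higher or not called. Of 30 tested, 16 were higher and 0 lower at a median log2 fold change of 1.16, and 17 were higher and 1 lower without PM replicate 2. The calcium-storing Casq1 stood at 1428 and 1237 CPM in PMs and at 121 and 159 CPM in C2C12 cells, 9.52-fold higher (edgeR adjusted p = 7.9e-05). The calcium pump Atp2a1 had a log2 fold change of 2.83 (SE 0.29, edgeR adjusted p = 2.5e-05) and the release channel Ryr1 of 1.63 (SE 0.24, edgeR adjusted p = 0.00023). The 17 genes of the neuromuscular junction had a median log2 fold change of 0.02 and, with 3 higher and 3 lower, were near the shares of all genes tested (17.2% and 13.3%). The 3 higher included Ache, the acetylcholine-degrading enzyme (64.5 and 54.3 CPM against 2.14 and 2.097 CPM), and the adult receptor subunit Chrne, and the 3 lower included Lrp4, the receptor for agrin, and the receptor-clustering Rapsn, whose call was lost without PM replicate 1 or C2C12 replicate 1.

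**Figure D3:**
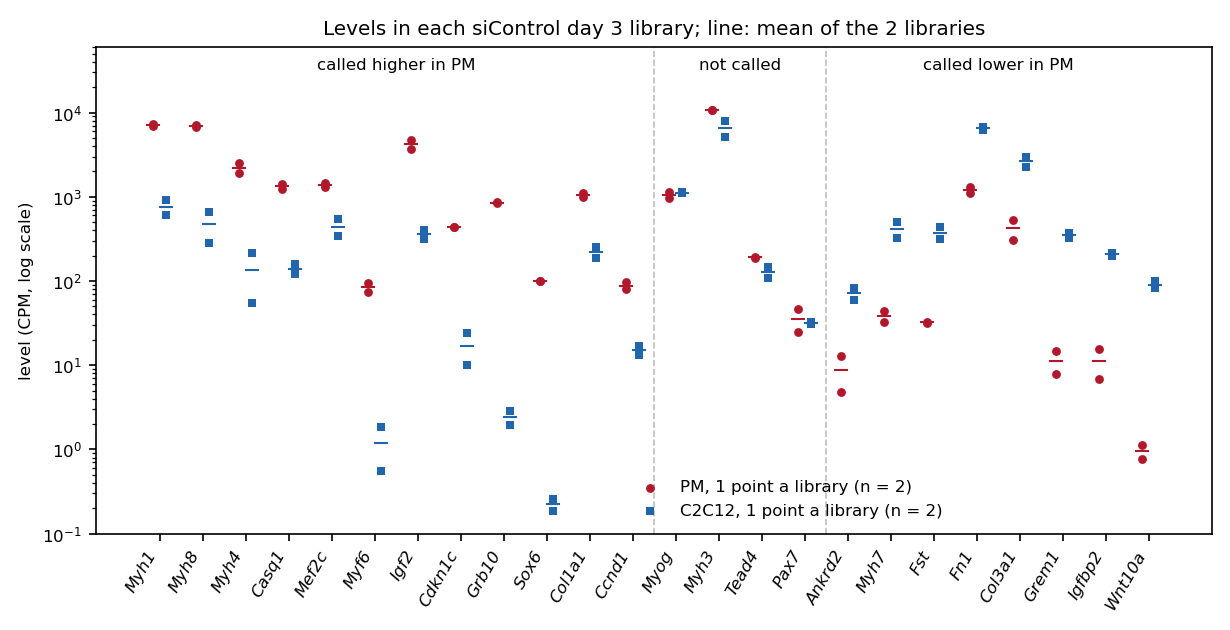
Levels in CPM, on a log axis, of 24 named genes in each siControl day 3 library, with PM libraries as red circles, C2C12 libraries as blue squares and a line at the mean of the 2 libraries. Groups did not overlap for the 12 genes called higher and the 8 called lower in PMs, whereas Myog and Pax7, both not called, overlapped.

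Of 37 myogenic transcription factors tested, 12 were higher and 2 lower in PMs (median log2 fold change 0.35). Without PM replicate 2, 11 and 6 were called. The shares of all genes tested were 17.2% higher and 13.3% lower. Sox6, which represses slow fibre genes, had 3645 and 4052 counts in PMs against 8 and 13 in C2C12 cells (log2 fold change 8.78, SE 0.26, edgeR adjusted p = 2.1e-08). Myf6, the late myogenic factor Mrf4, stood at 74.2 and 94.7 CPM against 0.552 and 1.86 CPM (log2 fold change 6.10, SE 0.45, edgeR adjusted p = 2.5e-06). Mef2c, a partner of the myogenic factors, stood at 1322 and 1438 CPM against 343 and 541 CPM, and Myod1 at 399 and 450.1 CPM against 169 and 172 CPM. For each of these 4 genes both PM libraries lay above both C2C12 libraries. Myf5 and Pax7 were not called, with log2 fold changes of 0.61 (edgeR adjusted p = 0.18) and 0.16 (edgeR adjusted p = 0.66). Twist2, a repressor of myogenic factors, and Prdm1 were lower in PMs.

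Of 25 satellite cell markers, 4 were higher and 7 lower, beside 17.2% and 13.3% of all genes tested. The share called higher was thus near that of all genes. Without PM replicate 1, 5 and 4 satellite cell markers were called, near both shares, and without C2C12 replicate 2, 2 and 5. Among the lower genes were Cxcr4, the chemokine receptor (2.91 and 11.3 CPM against 72.5 and 103 CPM), and Vcam1, an adhesion molecule. Of 25 genes of myoblast fusion, 3 were higher and 7 lower, also beside 17.2% and 13.3% of all genes tested. Mstn, which encodes the growth inhibitor myostatin, was higher, at 22.1 and 15.9 CPM against 0.046 and 0.0799 CPM, and its antagonist follistatin, Fst, was lower, at 31.7 and 32.5 CPM against 312 and 437 CPM (log2 fold change -3.54, SE 0.41, edgeR adjusted p = 5.2e-05). The fusogen Gm7325 (myomixer) was lower in PMs (log2 fold change -1.26, SE 0.30, edgeR adjusted p = 0.0048).

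Tead factors bind MCAT elements with the cofactors Yap1, Taz (Wwtr1) and the Vgll proteins. Tead1 stood at 283 and 270 CPM in PMs and at 93.2 and 149 CPM in C2C12 cells (log2 fold change 1.19, SE 0.33, edgeR adjusted p = 0.012). Its call was lost without C2C12 replicate 1 (0.91) and in the fit of all 24 libraries. Tead4, at 189 and 191 CPM against 108 and 145 CPM, did not reach the fold threshold (log2 fold change 0.59, edgeR adjusted p = 0.044), nor did Yap1 (0.42), Tead2 (-0.39), Tead3 (-0.37) or Wwtr1 (-0.91). Of 27 genes of the Tead and Hippo list, 2 were higher and 6 lower, and 4 and 5 without PM replicate 1. The shares of all genes tested were 17.2% higher and 13.3% lower. Of 28 known Yap-Tead target genes, 3 were higher and 12 lower (median log2 fold change -0.65), with 7 lower without C2C12 replicate 1 and 1 higher without C2C12 replicate 2. In C2C12 replicate 1 Cyr61 stood at 547 CPM and Ankrd1 at 889 CPM, against 156 and 441 CPM in C2C12 replicate 2, and without C2C12 replicate 1 their log2 fold changes were -0.37 and -0.41. The calls of both were lost without that library and without either PM library. Lgals3, at 171 and 104 CPM against 505 and 405 CPM, and Ccnd1, called higher, kept their calls in each fit that left out a library.

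Few genes of DNA replication and mitosis were called. Of 55 tested, 1 was higher and 3 were lower in PMs, but 11 had a log2 fold change above 0 (median -0.45), and the summed level was lower in both PM libraries, at 825 and 942 CPM against 1330 and 1270 CPM in C2C12 cells. Of 29 regulators of G1, 7 were higher and 3 lower, near the shares of all genes tested (17.2% and 13.3%). The count of lower G1 regulators was 0 without PM replicate 1 or without C2C12 replicate 1. Cyclin D1, Ccnd1, stood at 96.1 and 79.3 CPM against 16.7 and 13.4 CPM (log2 fold change 2.54, SE 0.28, edgeR adjusted p = 3.8e-05), and Ccnd2 at 209 and 186 CPM against 25.2 and 25.8 CPM. Ccnd3 was the largest D cyclin per kilobase in each of the 4 libraries, at 74.6% and 81.4% of the summed D cyclin counts per kilobase in PMs and 96.2% and 96.5% in C2C12 cells. Besides Cdkn2a and Cdkn2b, the imprinted inhibitor Cdkn1c (p57) was higher, at 436 and 434 CPM against 9.99 and 24.1 CPM.

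Imprinted genes, which are expressed from the allele of a single parent and many of which set growth, had the highest median of the 31 pathway lists. Of 26 tested, 22 were higher in PMs and 1, Sgce, was lower, beside 17.2% and 13.3% of all genes tested. The median log2 fold change of the imprinted list was 3.14, or 2.67 with genes without a count in a cell type set to their bound. Genes near 0 counts, such as Rian and Meg3, kept their fitted values. Grb10 (mm9 chromosome 11, 11830511 to 11938686), an adaptor that dampens insulin signalling, stood at 865 and 832 CPM in PMs and at 1.93 and 2.86 CPM in C2C12 cells (log2 fold change 8.46, SE 0.30, edgeR adjusted p = 4.5e-08). The noncoding RNAs Meg3 and Rian of the Dlk1-Dio3 domain on chromosome 12 had 1258 and 1307, and 2027 and 2561 counts in PMs, and at most 2 in each C2C12 library. Igf2 (mm9 chromosome 7, 149836673 to 149852721), the fetal insulin-like growth factor, stood at 4719 and 3738 CPM against 318 and 407 CPM (log2 fold change 3.54, SE 0.39, edgeR adjusted p = 3.7e-05). The adjacent noncoding H19 took 2.80% and 2.23% of all counts in PMs and 1.14% and 1.25% in C2C12 cells (log2 fold change 1.22, SE 0.23, edgeR adjusted p = 0.0011). In the insulin-like growth factor list, 5 of 16 genes were higher and 5 lower, beside 17.2% and 13.3% of all genes tested. The receptor Igf2r was among the higher and the binding proteins Igfbp2, Igfbp4, Igfbp6 and Igfbp7 were among the lower.

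The genes of energy metabolism were shifted towards PMs. Of 38 genes of glycolysis and glycogen use, 23 were higher and 3 lower (median log2 fold change 1.14), with 5 lower without PM replicate 2. Muscle glycogen phosphorylase, Pygm, stood at 2581 and 2232 CPM in PMs and at 265 and 301 CPM in C2C12 cells (log2 fold change 3.09, SE 0.37, edgeR adjusted p = 6.0e-05), and aldolase, Aldoa, at 7142 and 5332 CPM against 1168 and 1236 CPM. The 3 lower genes were Eno2, Pfkp and Pgam1, forms that predominate outside muscle, and Pgam1 lost its call without PM replicate 1 or C2C12 replicate 1. Of 66 genes of the respiratory chain and its regulators, 40 were higher and 0 lower (median 1.12). Among them succinate dehydrogenase, Sdha, stood at 845 and 751 CPM against 264 and 270.2 CPM. The genes of the mitochondrial genome took 4.72% and 4.97% of the counts in PMs and 3.60% and 3.12% in C2C12 cells. Of 31 genes of cholesterol and fatty acid synthesis, 1 was higher and 2 were lower. The lower count was 4 without PM replicate 2, and 1 without PM replicate 1 or without C2C12 replicate 1. In the list of atrophy genes and Foxo factors 5 of 22 were higher and 2 lower, near the shares of all genes tested (17.2% and 13.3%), and 3 and 4 without C2C12 replicate 1.

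**Figure D4:**
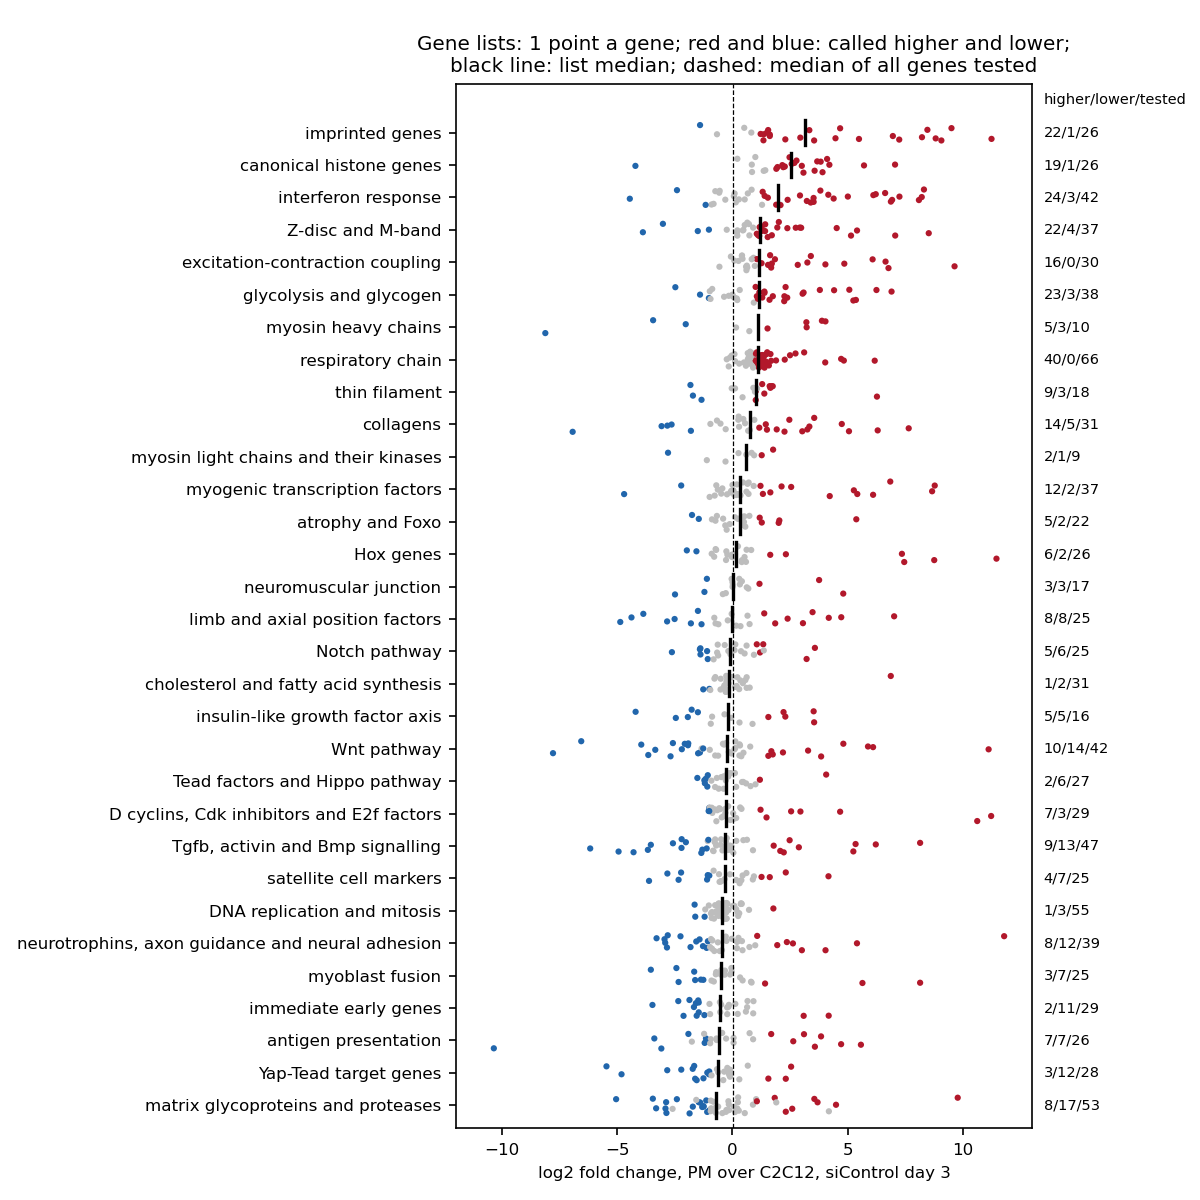
Each point is a tested gene of the list named at the left, placed by its log2 fold change of PM over C2C12 in siControl cells at day 3, in red where called higher and in blue where called lower. Black bars are list medians, from 3.14 for imprinted genes to -0.72 for matrix glycoproteins and proteases, and the dashed line is the median of all genes tested (0.02). The numbers at the right give genes higher, lower and tested.

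Matrix genes divided between the cell types. Among all genes tested, 17.2% were higher and 13.3% lower in PMs. Of 53 matrix glycoproteins and proteases, 8 were higher and 17 lower in PMs (median log2 fold change -0.72), and 5 were higher without PM replicate 1 or without C2C12 replicate 2. Fibronectin, Fn1, stood at 1118 and 1313 CPM in PMs and at 6246 and 6704 CPM in C2C12 cells (log2 fold change -2.41, SE 0.19, edgeR adjusted p = 4.4e-06). Of 31 collagens tested, 14 were higher and 5 lower (median 0.76). The summed level of the 34 collagens with an entry was, however, lower in both PM libraries, at 5743 and 6461 CPM against 6915 and 8786 CPM. Col3a1 was the most abundant over the 4 libraries. Col1a1 stood at 1100 and 993 CPM in PMs against 187 and 251 CPM (log2 fold change 2.26, SE 0.27, edgeR adjusted p = 5.7e-05), whereas Col3a1, which fibrils of type I collagen often contain, stood at 307 and 532 CPM against 2269 and 2973 CPM (log2 fold change -2.64, SE 0.29, edgeR adjusted p = 3.6e-05). For each of these genes both PM libraries lay on the same side of the C2C12 libraries.

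Signalling pathways differed gene by gene. Among all genes tested, 17.2% were higher and 13.3% lower in PMs. In the Wnt list 10 of 42 genes were higher and 14 lower. The ligand Wnt10a had 28 and 46 counts in PMs and 3558 and 4970 in C2C12 cells (log2 fold change -6.56, SE 0.38, edgeR adjusted p = 5.2e-07), while Wnt5a stood at 20.4 and 10.8 CPM in PMs against 0.184 and 0.260 CPM. The receptor Fzd1 was lower (log2 fold change -3.35), as was the coreceptor Lrp5 (-1.27). In the Tgfb, activin and Bmp list 9 of 47 were higher, near the share of all genes tested, and 13 lower. The Bmp antagonist Grem1 stood at 14.7 and 7.90 CPM in PMs against 369 and 327 CPM (log2 fold change -4.94, SE 0.33, edgeR adjusted p = 1.4e-06), whereas Nog, another Bmp antagonist, was higher (2.48). Of 25 Notch genes, 5 were higher and 6 lower. These counts were 3 and 4 without C2C12 replicate 1, near the shares of all genes tested, and 3 and 5 without C2C12 replicate 2. The receptor Notch2 and the target Hes1 were among the lower, but Hes1 lost its call without PM replicate 1 (-0.94) or C2C12 replicate 1 (-0.79). Of 29 immediate early genes, 2 were higher and 11 lower, with 4 and 8 without C2C12 replicate 1. Among genes of neurotrophins, axon guidance and neural adhesion, 8 of 39 were higher and 12 lower.

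Of 26 Hox genes, which mark body position, 6 were higher and 2 lower (median log2 fold change 0.17), near the shares of all genes tested (17.2% and 13.3%), and 1 was lower without PM replicate 1 or C2C12 replicate 2. Hoxd8 had 298 and 364 counts in PMs and none in C2C12 cells, and was at least 133-fold higher, and its neighbour Hoxd9 had 230 and 226 counts against 0 and 1. Of 25 limb and axial factors, 8 were higher and 8 lower, among them Tbx4, a hindlimb factor (10.1 and 18.3 CPM against 1.10 and 1.44 CPM), and Tbx18, which was lower (12.0 and 11.6 CPM against 90.0 and 78.8 CPM). Without C2C12 replicate 1, 5 limb and axial factors were called higher.

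Interferon response genes were higher in PMs, but unevenly between the PM libraries. Of 42 tested, 24 were higher and 3 lower (median log2 fold change 1.98), beside 17.2% and 13.3% of all genes tested. The summed level of the list was 373 and 916 CPM in PMs and 480 and 466 CPM in C2C12 cells. Only PM replicate 2 was thus above the C2C12 libraries. Isg15, a ubiquitin-like protein induced by interferon, stood at 3.49 and 37.9 CPM against 1.27 and 0.719 CPM, and its call was lost without PM replicate 2. Without that library 16 of the list were higher and 7 lower. In antigen presentation 7 of 26 genes were higher and 7 lower, with 4 lower without PM replicate 1. H2-Q2 had no count in PMs and 188 and 183 in C2C12 cells, H2-K1 was not called (log2 fold change 0.90), and H2-D1 was not called (-0.69). Genes of the H2 family differ between mouse strains and share reads, so these values are uncertain.

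Canonical histone genes were higher in PMs, with 19 of 26 called higher and 1 lower (median log2 fold change 2.52, or 2.37 at the bound). Without C2C12 replicate 2, 15 were higher. The lower one, Hist1h2ag, had at most 3 counts in each library, and its call was lost without each library in turn. The summed level of the 41 entries was 257 and 259 CPM in PMs and 99.4 and 94.3 CPM in C2C12 cells. Most of it was Hist1h1c, at 129 and 127 CPM in PMs against 67.3 and 61.6 CPM, and Hist1h2bc. The latter stood at 91.3 and 92.6 CPM against 23.3 and 24.1 CPM. Most of the called histone genes thus stood at low levels. Transcripts of canonical histone genes mostly lack a poly(A) tail, and the libraries were made from polyadenylated RNA, so what was counted is the tailed or carried-over part. Among gene types, 28.2% of 689 lincRNA genes were higher and 9.58% lower, 31.7% of 284 antisense genes were higher and 9.86% lower, and 13.8% of 506 pseudogenes were higher and 25.3% lower, beside 17.2% and 13.3% of all genes tested. The pseudogenes had a median log2 fold change of 0.01. The libraries did not keep the strand, so reads of antisense and overlapping genes cannot be told apart.

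Among the autosomes, the median log2 fold change was highest on chromosome 7, at 0.35 over 1227 genes, with 23.9% called higher and 8.23% lower, and lowest on chromosome 15, at -0.38 over 632 genes, with 13.3% higher and 20.6% lower. The same chromosomes stood at 0.29 and -0.41 at day 0, at 0.38 and -0.39 at day 6, and at 0.40 and -0.45 in siTead1/4 cells at day 3. On chromosome 10 the median was -0.26, and on the other autosomes it lay between -0.09 and 0.20. The 33 mitochondrial genes tested had a median of 0.94, with 8 higher (24.2%) and 0 lower. Among all genes tested, 17.2% were higher and 13.3% lower. The number of copies of each chromosome in these cells was not analysed here.

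The same contrast was made in the other siControl libraries. At day 0, 2555 genes were higher in PMs (16.2% of those tested) and 1767 lower (11.2%), and at day 6, 2497 were higher (15.8%) and 1585 lower (10.0%). These comparisons share no library with day 3. Of the 2728 genes higher at day 3, 1583 were higher at day 0, which is 58.03% of the day 3 and 61.96% of the day 0 genes, and 2018 were higher at day 6, which is 74.0% and 80.8%. Of the 2097 lower genes, 1066 were lower at day 0 (50.8% and 60.3%) and 1279 at day 6 (61.0% and 80.7%). In siTead1/4 cells at day 3, tested in a fit of their own, 2884 genes were higher (18.7% of 15449) and 2281 lower (14.8%), with 2113 and 1563 shared with siControl cells in direction.

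Whether a difference at day 3 departed from that at day 0 was tested with an interaction term. The signed log2 fold change of PM over C2C12 was higher at day 3 than at day 0 for 726 genes (4.59%) and lower for 1349 (8.53%), whichever cell type had the higher level. Contractile genes were among the latter. At day 0 the PMs already had Myog at 944 and 1023 CPM and Myh3 at 4046 and 3735 CPM, whereas C2C12 cells had Myog at 9.69 and 2.89 CPM and Myh3 at 14.8 and 7.14 CPM, so the day 0 contrast set PMs that expressed muscle genes against C2C12 cells that hardly did. The median of the Z-disc and M-band list was 5.20 at day 0, 1.18 at day 3 and 1.06 at day 6, and 25 of its 37 genes had a lower and 1 a higher log2 fold change at day 3 than at day 0. The imprinted list went from 5.18 to 3.14 and 2.80, with 8 of 26 genes lower by this test. The opposite course was seen in canonical histone genes, with a median of 0.06 at day 0, 2.52 at day 3 and 1.82 at day 6, and 11 of 26 genes with a higher log2 fold change at day 3. In the respiratory chain list of 66, day 0 had 11 genes higher and 1 lower, day 3 had 40 higher and 0 lower, and day 6 had 11 higher and 0 lower. Among all genes tested, 16.2% were higher and 11.2% lower at day 0, and 15.8% and 10.0% at day 6. The counts higher at days 0 and 6 were thus near the shares of all genes. By the interaction test 4 of 66 had a higher and 3 a lower log2 fold change at day 3 than at day 0. These were near or below the 4.59% and 8.53% of all genes tested. The interferon list had 4 genes higher and 9 lower at day 0 and 17 higher and 2 lower at day 6 (median 1.15), and by the interaction test 6 of 42 had a higher and 1 a lower log2 fold change at day 3 than at day 0. In siTead1/4 cells at day 3 the interferon list had 7 higher and 8 lower of 40, beside 18.7% and 14.8% of all genes tested.

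**Figure D5:**
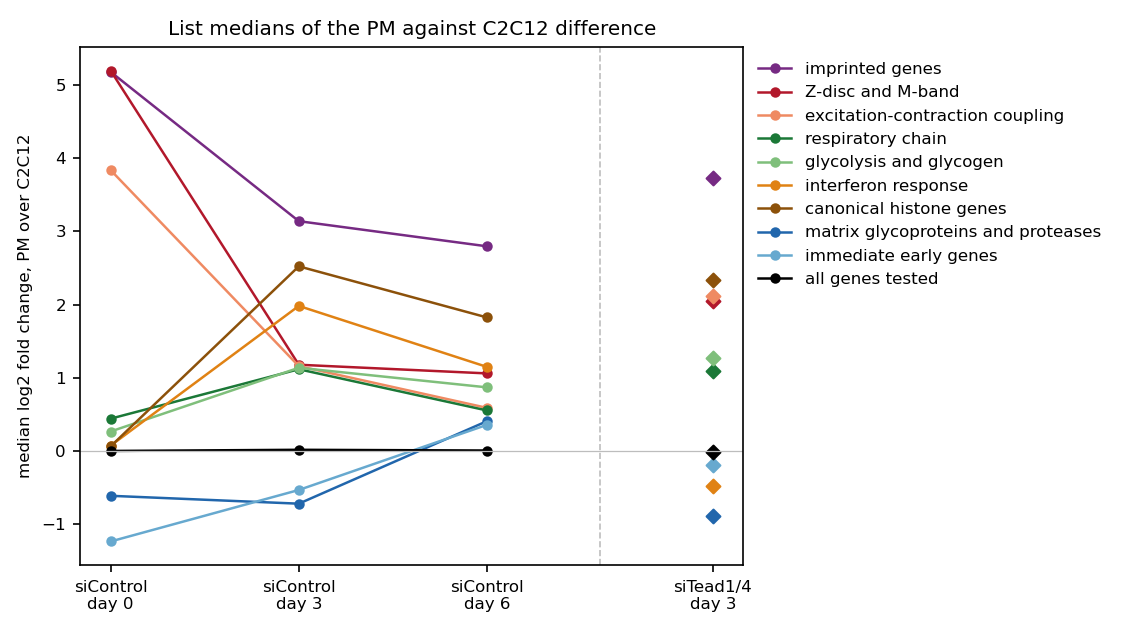
Median log2 fold change of PM over C2C12 for 9 gene lists and for all genes tested, in siControl cells at days 0, 3 and 6 (circles joined by lines) and in siTead1/4 cells at day 3 (diamonds, from a separate fit). The Z-disc and M-band list went from 5.20 at day 0 to 1.18 at day 3, while canonical histone genes went from 0.06 to 2.52.

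Some genes turned direction between the days. In all, 129 genes were lower in PMs at day 3 and higher at day 0, and 29 were higher at day 3 and lower at day 0. All of these passed the interaction test, which the choice of genes called in opposite directions largely fixes. Myh7 had log2 fold changes of 4.48 at day 0 and -3.44 at day 3 (edgeR adjusted p = 7.2e-05 for the difference). Its level was 12.2 and 24.8 CPM in PMs and 1.49 and 0.317 CPM in C2C12 cells at day 0, so it rose in both, and more in C2C12 cells. Ankrd2, an ankyrin repeat protein of stretched muscle, went from 7.59 to -3.02, Fst from 1.73 to -3.54, and the slow light chain Myl2 from 5.92 to -2.80. In the other direction, Loxl2, which crosslinks collagen, went from -3.27 at day 0 to 1.06 at day 3, although its day 3 call was lost without PM replicate 1 (0.90) or C2C12 replicate 2 (0.96).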

How the data were processed

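RNA was measured by sequencing of poly(A)-selected libraries (TruSeq RNA v2, strand not kept). Per the labels and the submitters' processing notes, the authors made the deposited raw read counts per gene with CASAVA 1.8.2, TopHat2 2.0.10, Bowtie2 2.1.0 and HTSeq 0.6.1 on mm9, and used DESeq2 1.8.1. Their normalized columns and 36 columns of libraries that are not listed as samples were not used here.

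The 12 siControl libraries were fitted together with 6 group means in edgeR 4.0.16 (quasi-likelihood test, TMM scaling, filterByExpr, R 4.3.3), and p-values were adjusted by Benjamini-Hochberg over all genes tested, X and Y included. The siTead1/4 libraries were fitted apart. The code was tested on simulated data. DESeq2 1.42.0, other scalings and filters, other sets of libraries, a replicate block and leaving out each library were tried. Lists are described by counts and medians, without a set test. The genes compared and the lists were chosen with earlier results of these data known. Named genes were the 12 largest rises and falls of at least 10 CPM, the 6 most abundant called genes of each direction, up to 4 called members of each list and direction, a fixed set, and the 6 genes of each cell type with the most counts among those on in that cell type alone. List members outside this rule were named after their values were seen.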

Additional observations from a re-analysis of the deposited data

Results flagged for a closer look

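By the interaction test, the signed log2 fold change of PM over C2C12 was higher at day 3 than at day 0 for 726 genes and lower for 1349. Of the genes whose direction turned, 29 were higher in PMs at day 3 and lower at day 0, and 129 were lower at day 3 and higher at day 0. The cause was not tested.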

How the results depend on the processing

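The counts of genes called at day 3 stayed within 1.5 times the reported values under each alternative with 1 exception. With at least 10 counts required in each of the 4 libraries, 1591 genes were higher in PMs and 1459 lower, a filter that removes genes near 0 in either cell type and left 12656 genes. The counts were 2534 higher and 1954 lower by DESeq2, 2904 and 2221 without a filter, 2536 and 2063 with the 4 libraries alone, and 2773 and 2038 with all 24 libraries. Leaving out each library in turn gave 2398 to 2572 higher and 1831 to 2051 lower, and a single gene among the reported calls changed sign. The replicate numbers are shared by label only (correlation of deviations 0.06). A replicate block gave 2765 higher and 2104 lower genes. Of 221 named genes that were called, 176 kept their call under each alternative that gave them a value, 39 of these having none under the filter of 10 counts in each library, 45 lost it in at least 1, and none reversed, and 6 of 18 named genes not called were called in some setting. Of 868 counts over the gene lists, 803 stayed within 1.5 times. The calls of Des and Vim were lost only under total count scaling (0.96) and upper-quartile scaling (-0.96). The interaction gave 789 and 1392 genes by DESeq2. With 2 libraries a group, genes with few counts and differences near the fold threshold were the least certain.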
